A study of Rattus norvegicus with 21 samples.

Results

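The mRNA of untreated rat insulinoma cells is described here from 4 libraries, with no comparison between treatments. The cells were INS-1 832/13, seeded 24 h before the exposure period in 12-well plates, left without metal for a further 24 h, and sequenced from a Kapa mRNA library. Members are the rows whose normalized counts averaged 10 or more across the 4 libraries, which gave 14419 of the 32750 rows of the table, or 44% of all rows. The 4 libraries belong to a series of 21 samples, in which other groups received inorganic arsenic, cadmium or manganese. INS-1 832/13 is 1 clone, selected from a line derived from a rat beta cell tumour after transfection with a human insulin gene. All 32750 rows carry rat gene identifiers, so transcripts of the human gene have no row of their own, and where their reads were placed was not tested. No label says that the libraries came from separate cultures, so every SD below is the spread between these libraries, which may be technical.

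Pancreatic beta cells make insulin from a larger precursor, which convertases cut inside dense-core granules together with granins and amylin. Glucose enters the cell and is metabolised to ATP, which closes K-ATP channels, opens calcium channels and releases the granules. A small set of transcription factors, among them PDX1, MAFA, NKX6-1 and NEUROD1, binds the insulin promoter and holds this program. Alpha, delta, PP and epsilon cells of the islet make glucagon, somatostatin, pancreatic polypeptide and ghrelin.

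A normalized count is the authors' read count per gene scaled with DESeq2. It is not corrected for transcript length, because no transcript lengths were at hand, so a rank below is an order of normalized counts and not of transcripts per cell. The column totals lay between 51009800 and 53711040 normalized counts. Between 14310 and 14478 rows per library reached 10. Over the members, Spearman's correlation between libraries lay between 0.9895 and 0.9971, across genes, which share library and depth. The closest pair was replicates 1 and 3, the only 2 libraries whose codes in the sample descriptions end alike. Replicates 2 and 4 stood apart in named groups of genes, given below. An exact 0 in this table cannot be read as absence. The ribosomal protein genes Rps6, Rpl22 and Rpl39, which every cell uses, are listed at 0 in all 4 libraries, and Rpl38 at 0.83, 0, 0 and 0.99 normalized counts. The purine salvage gene Hprt1 is listed at 158 and 212 normalized counts in replicates 1 and 3 and at 0 in replicates 2 and 4.

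The hormone genes carry the largest single signal, so the 250 bases upstream of the start of 4 of them are shown, from RefSeq on build GRCr8. They were matched by symbol. Capitals mark 3 motifs searched on both strands: TAAT, the core of the A boxes that homeodomain factors such as PDX1 bind; GCCATCTG, the E box of NEUROD1; and TATAAA, the TATA box. The 4 windows are chr1:261185869-261186118 on the plus strand for Ins1, chr1:207273806-207274055 on the minus strand for Ins2, chr4:176967847-176968096 on the plus strand for Iapp and chr3:67531534-67531783 on the minus strand for Gcg.
Ins1: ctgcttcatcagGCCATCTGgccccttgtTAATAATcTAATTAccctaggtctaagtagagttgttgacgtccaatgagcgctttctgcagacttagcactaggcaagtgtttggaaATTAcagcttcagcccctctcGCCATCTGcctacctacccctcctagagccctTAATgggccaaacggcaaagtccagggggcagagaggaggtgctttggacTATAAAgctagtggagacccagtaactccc
Ins2: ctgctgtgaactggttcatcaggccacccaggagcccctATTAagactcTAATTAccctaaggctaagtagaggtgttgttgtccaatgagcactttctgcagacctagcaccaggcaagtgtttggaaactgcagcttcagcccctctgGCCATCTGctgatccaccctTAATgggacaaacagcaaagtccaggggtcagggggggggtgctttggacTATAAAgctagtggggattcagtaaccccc
Iapp: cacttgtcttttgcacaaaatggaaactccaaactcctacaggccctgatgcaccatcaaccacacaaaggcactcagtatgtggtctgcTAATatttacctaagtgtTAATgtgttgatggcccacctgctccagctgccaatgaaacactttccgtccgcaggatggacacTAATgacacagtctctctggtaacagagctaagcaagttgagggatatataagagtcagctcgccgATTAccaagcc
Gcg: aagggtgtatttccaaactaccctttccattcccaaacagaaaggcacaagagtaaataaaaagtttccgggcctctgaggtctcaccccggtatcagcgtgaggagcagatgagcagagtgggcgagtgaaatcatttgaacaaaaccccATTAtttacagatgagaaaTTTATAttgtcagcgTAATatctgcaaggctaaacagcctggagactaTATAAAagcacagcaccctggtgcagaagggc

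The Ins1 and Ins2 windows were identical at 206 of 262 aligned positions, or 78.6%. Ins1 held 6 matches to TAAT, 2 to GCCATCTG and 1 to TATAAA. Ins2 held 4 matches to TAAT, 1 to GCCATCTG and 1 to TATAAA. Iapp held 4 matches to TAAT and Gcg 2, and neither held GCCATCTG in this window. Of 33469 RefSeq windows of the same length, 57% held TAAT, 0.998% GCCATCTG and 12.9% TATAAA. A match is a run of letters and was not tested as a binding site.

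Insulin 1 took the most normalized counts of any gene in each library. Ins1 had 1965429, 1579187, 2086082 and 1614545 normalized counts in replicates 1 to 4, a mean of 1811311 ± 252883 (SD, n = 4). It was higher in replicates 1 and 3 than in replicates 2 and 4, and made up 3.43% ± 0.441 of all normalized counts (SD, n = 4). Insulin 2, the second rat insulin gene, had 18075, 25547, 18558 and 29835 normalized counts (mean 23004 ± 5692). Here replicates 2 and 4 lay above replicates 1 and 3, the opposite of Ins1. Ins2 was between 0.882% and 1.81% of the normalized counts of both insulin genes together. Because the 2 genes are close copies, how reads were divided between them is not certain.

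Amylin, the peptide stored and released with insulin, is encoded by Iapp, which had 142560, 128176, 149209 and 113711 normalized counts. Like Ins1, it was higher in replicates 1 and 3. The proglucagon gene Gcg, an alpha cell gene in the adult islet, had 86935, 86569, 80235 and 133456 normalized counts, rank 26 of all rows. Replicate 4 lay above the other libraries, which stayed between 80235 and 86935. Without replicate 4 the mean of Gcg was 84579.6, and 96799 ± 24631 with it. In bulk RNA, fewer cells that express a gene and less RNA per cell cannot be told apart, so a few glucagon-positive cells and low expression in all cells give the same value.

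The other islet hormones were low, apart from neuropeptide Y. Neuropeptide Y, which fetal beta cells make, had a mean of 6088 ± 917 normalized counts from Npy (SD, n = 4). That mean lay at percentile 87.0 of the members. Peptide YY was close to the threshold, with 0.825, 23.2, 11.5 and 15.1 normalized counts from Pyy. Pancreatic polypeptide (Ppy) had 4.13 to 9.47 normalized counts, somatostatin (Sst) 0 to 8.43 and ghrelin (Ghrl) 0.822 to 3.15, each below 10 in every library. Of the 9 listed hormone genes 6 were members, or 66.7%, much as the 67% of all rows with a symbol. Together the 9 made up 3.92% ± 0.422 of the normalized counts (SD, n = 4).

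**Figure D1:**
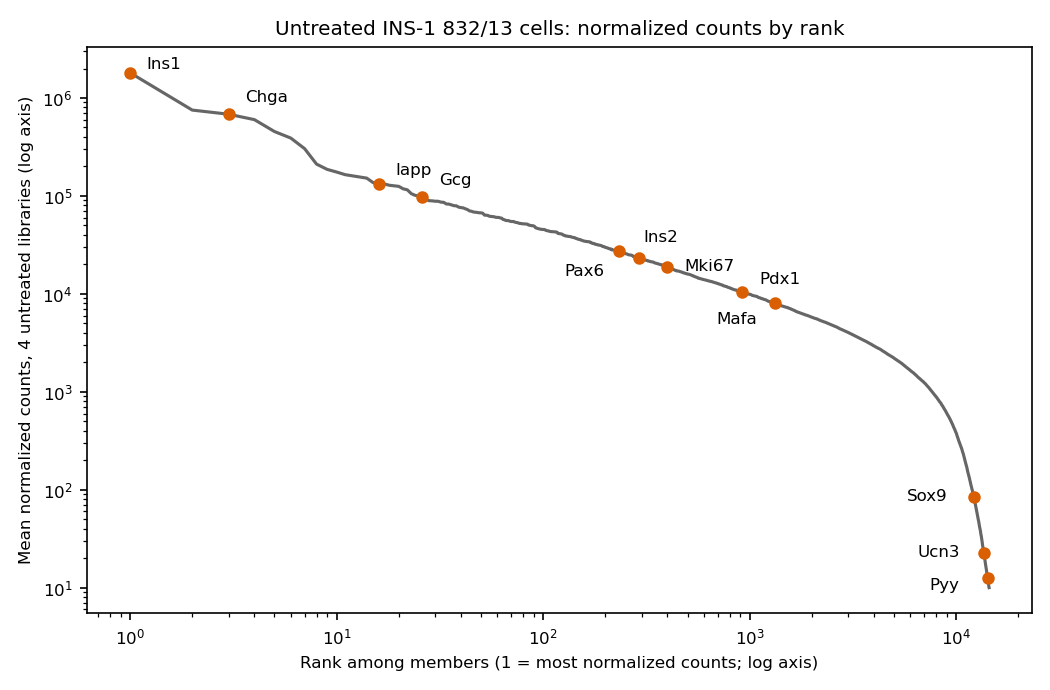
Mean normalized counts of each member over the 4 untreated libraries (vertical, log axis) against its rank (horizontal, log axis), with named genes marked. Ins1 stands at 1811311, Iapp at 133414, Gcg at 96799 and Ins2 at 23004, while the maturity marker Ucn3 stands at 22.5 and Pyy at 12.7.

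The profile as a whole was led by granule cargo, mitochondrial transcripts and the translation machinery. The 10 leading rows made up 10.5% ± 0.660 of all normalized counts and the 100 leading rows 23.1% ± 0.921 (SD, n = 4). A total of 813 genes held the first 50% of the counts, 5427 genes held 90%, and the median member had 1159 normalized counts. There were 25 genes with at least 100000, 978 with at least 10000, 7651 with at least 1000 and 11947 with at least 100. After Ins1 the order ran Mt-co1, Chga, Chgb, Mt-co3, Mt-cyb, Mt-atp6, Mt-co2 and Eef2. Among the 30 leading genes with a symbol were also Ubb (ubiquitin), Hsp90ab1 (a cytosolic chaperone), Tuba1b (tubulin), Gaa (lysosomal alpha-glucosidase), Acly (the enzyme that makes cytosolic acetyl-CoA), Ppia (cyclophilin A), the tetraspanin gene Cd63, the imprinted gene Nnat and the fibronectin gene Fn1.

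Chromogranins and the processing enzymes of the granule were all present. All 24 measured genes of the list of granule and processing genes were members, against 67% of all rows with a symbol. Membership is set by the threshold on these same libraries, so such counts describe the profile and are no test. The share of 67% is the background for each count of listed members in this description. The median of the granule and processing genes lay at percentile 98.8 of the members, against 30.3 over all rows with a symbol. Chga, the granin chromogranin A, had 641424, 752532, 626553 and 711288 normalized counts, and Chgb (chromogranin B) 601312 ± 31103 (SD, n = 4). Chga was higher in replicates 2 and 4, the libraries in which Ins1 was lower, and Chgb was lowest in replicate 4. The convertase gene Pcsk2 hardly varied, at 118210 ± 1485 normalized counts, and the other convertase gene, Pcsk1, had 12042 ± 2310. Cpe, the carboxypeptidase that trims the cut peptides, had 115453 ± 6067. Ptprn, a granule membrane protein and autoantigen, had a mean of 76864, and the granin genes Scg2 and Vgf 75522 and 70336. Slc30a8, the zinc transporter of the insulin granule, had 12437 ± 393. Pcsk1n, which encodes a convertase inhibitor, had 0, 46.1, 0 and 0 normalized counts, so replicate 2 alone made it a member.

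Beta cell transcription factors were broadly present. Of 26 listed genes 24 were matched, 23 were members, and their median lay at percentile 81.0 of the members. Pdx1 had 9625, 12721, 9158 and 9955 normalized counts in replicates 1 to 4, Mafa 8108, 9407, 7397 and 7028, and Nkx6-1 8007, 10587, 7699 and 8041. Each of these genes was highest in replicate 2. Pax6, an islet factor shared by all endocrine cells, had 27096 ± 3436 normalized counts, and the zinc-finger factor gene St18 20548 ± 1241 (SD, n = 4). Neurod1 (8265), Foxa2 (8137), Tshz1 (7430), Isl1 (7234) and Rfx6 (6907) had fewer normalized counts. Myt1 (4791), Hnf4a (4067) and Nkx2-2 (3864) were lower, with Glis3 (1950), Mnx1 (1735), Rfx7 (991), Esrrg (645) and Rfx3 (542) below them. Foxa1 (168), Tcf7l2 (115) and Pax4 (18.5) were in the lower part of the members. Neurog3, the factor that starts the endocrine lineage in the embryo, is listed at 0 in all 4 libraries.

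Genes of mature beta cell function were mostly present, with Fxyd2 below the threshold and Ucn3 little above it. Of 23 measured genes 22 were members, with a median at percentile 71.4. Slc2a2, the glucose transporter GLUT2 of rodent beta cells, had 18328, 24913, 17704 and 22071 normalized counts, highest in replicate 2. The incretin receptor gene Gipr had 10627, 20806, 11826 and 9851 normalized counts, so replicate 2 was about double the other libraries, at 1.93 times their mean. The related receptor gene Glp1r had 5819 ± 436 (SD, n = 4). Ucn3, a peptide hormone whose appearance marks mature rodent beta cells, had only 14.02, 12.6, 28.0 and 35.3 normalized counts. Fxyd2, a subunit that modulates the sodium pump, was below 10 with a mean of 0.800.

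Glucose sensing and excitability genes were members in 29 of 31 cases, with a median at percentile 75.4. The calcium pump genes Atp2a3 (57449 ± 1574) and Atp2a2 (46929 ± 2049) and the calcium channel subunit gene Cacnb3 (32792 ± 224) led this list by normalized counts (SD, n = 4). Both parts of the K-ATP channel were present, with 25783 ± 1719 for Abcc8, the sulfonylurea receptor, and 23308 ± 1033 for Kcnj11, the pore. The calcium channel gene Cacna1d had 5157 ± 298. Pc, pyruvate carboxylase, had 7968 ± 488. Of the low-Km hexokinase genes, Hk1 is listed at 0 in all libraries, which cannot be read as absence, and Hk2 had 0.81, 2.10, 6.51 and 0.99 normalized counts.

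Exocytosis genes were members in 29 of 29 cases, with a median at percentile 79.0. Among them, the granule GTPase gene Rab3d had 22812 ± 1581 normalized counts, the complexin gene Cplx2 22040 ± 2112 and the calcium sensor gene Syt7 18931 ± 1273 (SD, n = 4). Receptors for hormones and transmitters were members in 31 of 33 cases, with a median at percentile 55.2, against 30.3 over all rows with a symbol. Igf2r (14355), Gipr (13278), Ghr (9159) and Sstr3 (6350) had the most normalized counts of this list, and the glucagon receptor gene Gcgr had 5676 ± 705.

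Of 26 genes that adult beta cells are known to repress, 19 were members, or 73.1%, against 67% of all rows with a symbol. Their median lay at percentile 19.1, against 30.3 over all rows with a symbol. Mylk (6231), Igfbp4 (5153), Oat (3542) and Mgst1 (2784) had the most normalized counts. Ldha, lactate dehydrogenase A, is listed at 0 in all 4 libraries, and the monocarboxylate transporter gene Slc16a1 had 240 ± 68.2 (SD, n = 4). Since genes used by every cell are also listed at 0, the value of Ldha is given only as listed. The other lactate dehydrogenase gene, Ldhb, had 4449 ± 217.

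**Figure D2:**
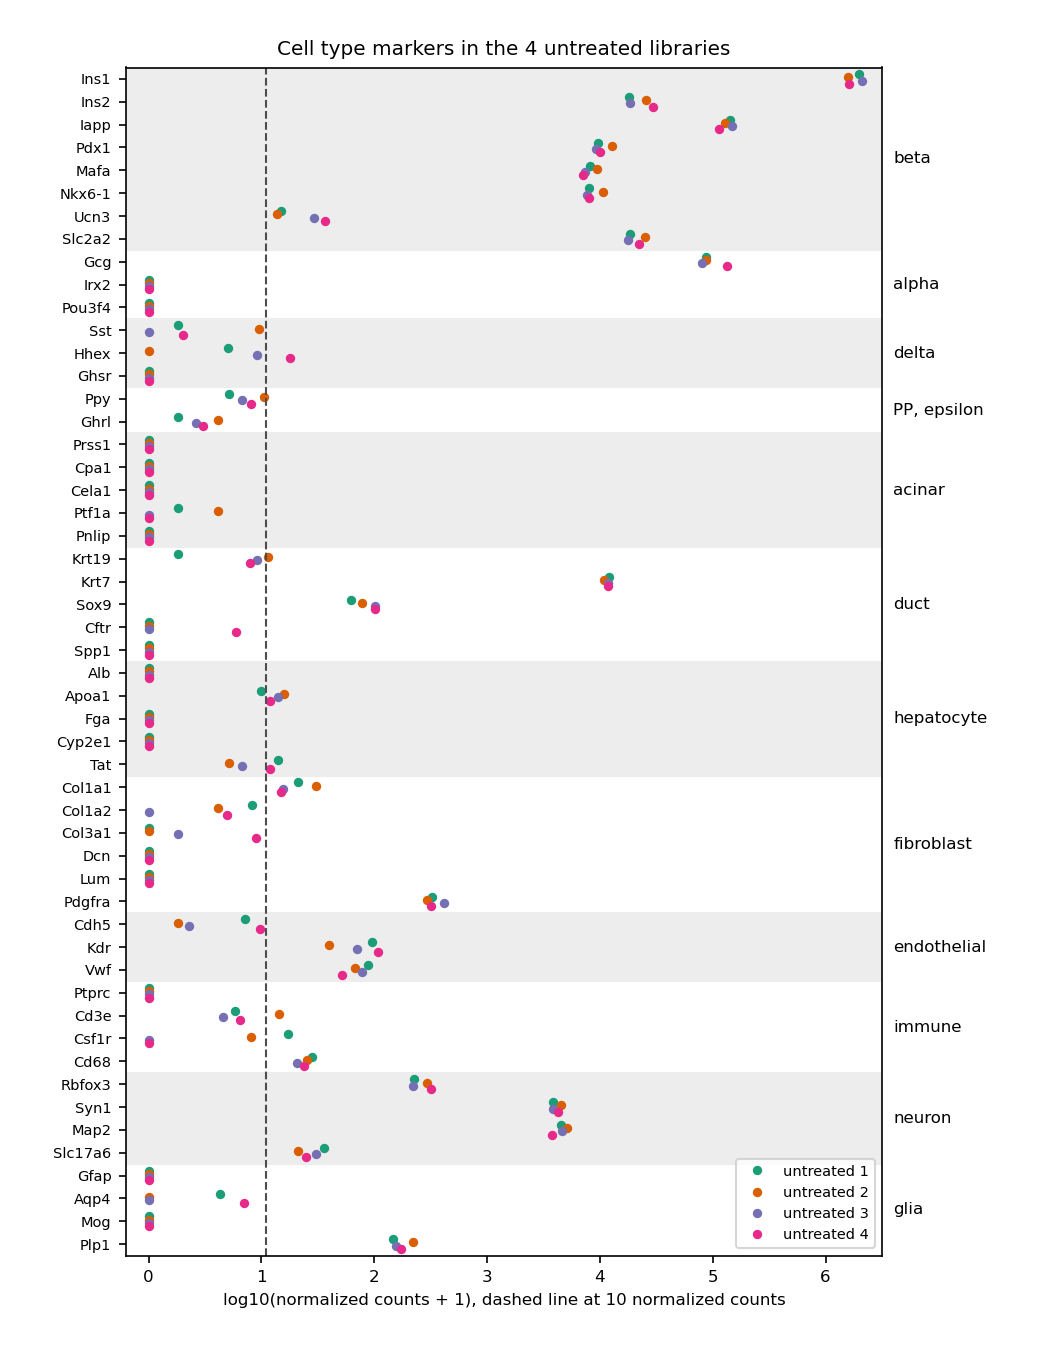
Log10 of normalized counts plus 1 (horizontal) for cell type markers (vertical, grouped by cell type), with one point for each of the 4 untreated libraries and a dashed line at 10 normalized counts. The beta cell markers shown lie far right of the line except Ucn3, which lies just beyond it, while most acinar, hepatocyte and immune markers lie left of it or at 0.

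Markers of other cell types were mostly at or under the threshold, with exceptions named here. Other islet cells had 8 members among 21 measured genes, which is 38.1% against 67% of rows with a symbol. The alpha cell factor genes Irx2 and Pou3f4 are listed at 0. Gc, the vitamin D-binding protein gene that alpha cells express, had 67175 ± 3229 and the factor gene Etv1 24912 ± 995 (SD, n = 4). The delta cell genes Hhex and Ghsr had 0 to 16.8 normalized counts and 0 in all libraries.

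Hepatocyte genes were examined because the labels give the tissue as liver. Albumin (Alb), Fga and Cyp2e1 are listed at 0 in all 4 libraries, Tat had 4.19 to 13.0 normalized counts and Apoa1 8.97 to 14.7. Of 18 measured hepatocyte genes 7 were members, or 38.9%, led by Ass1 (1331), Fgb (637), Serpina1 (391) and Apob (126). All 18 together made up 0.00491% ± 0.000330 of the normalized counts, against 3.92% for the hormones. The vitamin D-binding protein gene Gc, at 67175 ± 3229, was counted with the other islet cells and is not among these 18. A zero in this table does not show absence, but the listed liver genes with a value had few normalized counts beside the islet genes. For the genes of this list, that goes against the tissue label and not against the labelled cell type.

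Acinar genes were members in 4 of 18 cases. Prss1, Cpa1, Cela1 and Pnlip are listed at 0 and Ptf1a had at most 3.14 normalized counts, while Bhlha15, a factor of secretory cells, had 2228 ± 603 normalized counts (SD, n = 4). Duct and epithelial genes were members in 15 of 19 cases, or 78.9%, against 67% of all rows with a symbol. Krt8 (62021), Cdh1 (19862), Krt18 (18291) and Epcam (12637), which epithelia share, led that list, and Krt7 had 11593 ± 457. The duct genes Krt19 (mean 6.601), Cftr (1.23) and Spp1 (listed at 0) were below 10, and Sox9, a factor of ducts and progenitors, had 60.6, 76.5, 100.2 and 100.6 normalized counts.

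Fibroblast genes were members in 6 of 15 cases. Fn1 had 101411 ± 7142 and the surface glycoprotein gene Thy1 11389 ± 1541 normalized counts (SD, n = 4), while Col1a1 had 13.8 to 29.3, Col1a2 and Col3a1 had means of 3.59 and 2.17, and Dcn and Lum are listed at 0. Endothelial genes were members in 6 of 12 cases, or 50% against 67% of all rows with a symbol. Esam (3037) led them, and Cdh5 had a mean of 4.21. Immune genes were members in 5 of 18 cases, led by C1qa (338), and Ptprc, the pan-leukocyte gene, is listed at 0. Genes shared by neurons and endocrine cells were members in 26 of 29 cases, led by Uchl1 (55220), Syp (13682), Sv2a (10811) and Celf3 (10482), and Rbfox3, a marker of neuronal nuclei, had 263 ± 49.5. Glial genes were members in 4 of 10 cases, led by Mbp (2714), with Gfap, Mog, Olig2 and Sox10 listed at 0. Muscle and erythroid genes were members in 1 of 12 cases, Myh7 at a mean of 15.4. Of 19 measured genes of fat, kidney and gut 7 were members, led by Chgb, Vil1 (3826) and the gut hormone gene Cck (3598), and Gast, the gastrin gene, had 253 ± 58.97. The Y-linked genes Ddx3y, Kdm5d, Eif2s3y and Usp9y are listed at 0 in all 4 libraries.

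Mitochondrial and ribosomal transcripts took large shares. The 13 mitochondrially encoded genes made up 5.17% ± 0.662 of the normalized counts and the ribosomal protein genes 3.88% ± 0.347 (SD, n = 4). Mt-co1, a subunit of cytochrome oxidase, had 762820, 586809, 854694 and 807378 normalized counts. Of 74 matched ribosomal protein genes 70 were members, led by Rplp0 (125272 ± 14041) and Rps2 (88296 ± 10086). Several of these genes have near-identical copies, and symbols in more than 1 row were summed for the share, so single values are uncertain. The translation factors Eef2 (186699 ± 13676) and Eef1a1 (137039 ± 14517) led a list in which 22 of 22 were members. All 31 measured nuclear genes of oxidative phosphorylation were members, led by the ATP synthase genes Atp5f1b (79232) and Atp5f1a (53564). Of 24 glycolytic genes 20 were members, or 83.3% against 67% of all rows with a symbol. Eno1 (61785), Aldoa (60447), Pgam1 (46715) and Pkm (43244) led them.

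**Figure D3:**
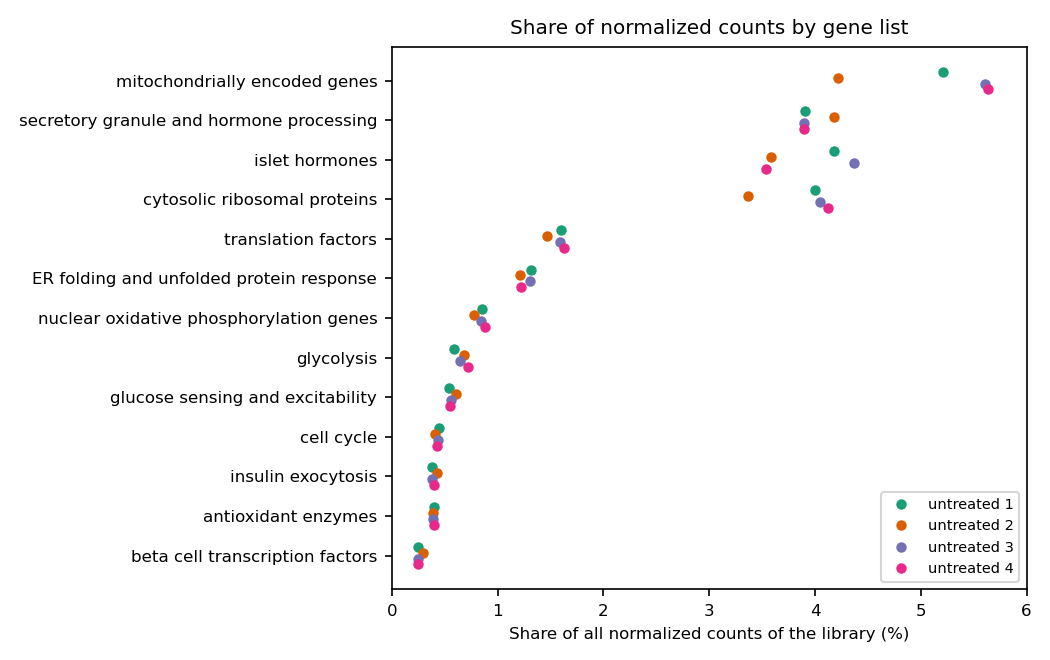
Share of all normalized counts of a library (horizontal, %) held by gene lists (vertical), one point per untreated library. Mitochondrially encoded genes hold 4.22% in replicate 2 and 5.21% to 5.63% in the others, ribosomal protein genes 3.37% in replicate 2 and 4.00% to 4.12% in the others.

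Genes of folding, defence and growth completed the profile. All 33 genes of endoplasmic reticulum folding were members, with a median at percentile 92.1, led by the chaperones and disulfide isomerases P4hb (100004 ± 9993), Calr (92476 ± 5073), Hsp90b1 (81000 ± 4083) and Pdia3 (59592 ± 4229) (SD, n = 4). Of 30 antioxidant genes 26 were members, or 86.7% against 67% of all rows with a symbol. Prdx1 (33867), Sod1 (32776), Prdx2 (27158) and Hmox1 (14132) led them. Catalase (Cat), which beta cells are known to hold at a low level, had 2261 ± 299.5 normalized counts, at percentile 65.9 of the members. The glutathione peroxidase gene Gpx1 had 11.1 ± 3.68. Since genes used by every cell are listed at or near 0 here, the value of Gpx1 is given only as listed. Cell cycle genes were members in 39 of 41 cases, led by the proliferation marker Mki67 (18970 ± 1839), Top2a (15918 ± 1173), Pcna (13098 ± 1520) and Cdk1 (12597 ± 1409). Among the regulators of the first cell cycle checkpoint, Cdk4 had 10697 ± 962, Ccnd2 1891 ± 247, Ccnd1 198 ± 66.9 and Cdk6 21.3 ± 6.10. Of the inhibitor genes, Cdkn1b had 4076 ± 182, Cdkn2c 3101 ± 517 and Cdkn1a 1235 ± 126. Cdkn2a and Cdkn2b are listed at 0, which cannot be read as absence. Of 10 matched imprinted and growth genes 8 were members, led by Nnat (105470), Gnas (53419), Peg3 (42404) and Igf2 (38653). Of 19 inflammatory and antigen presentation genes 15 were members, or 78.9% against 67% of all rows with a symbol. Among them were B2m (15786), Rela (5576) and the chemokine gene Cxcl10 (4607).

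The spread between libraries was small for most genes. The median coefficient of variation was 9.94% over all members and 8.54% over the 11947 genes with a mean of at least 100. Of those 11947 genes, 111 exceeded 50%. Between replicates 1 and 3, 35 of these genes differed by more than 2-fold on the log2(value + 1) scale, against 92 to 226 in the other pairs. The genes with a symbol and the largest spread at that level were Fam131a, Rn7sl1, Rmrp, Chac1, Calcoco1, Armcx1, Echs1, Cd99l2, Trib3 and Ndst2, with coefficients of variation from 104% to 191%. Fam131a had 9.70, 644, 5.70 and 5.92 normalized counts, so 1 library made its mean. Echs1, a mitochondrial enzyme gene, had 458, 0, 150 and 93.1, Armcx1 315, 157, 22.0 and 0, Cd99l2 182, 0, 91.3 and 443, and Ndst2 0.808, 525, 116 and 222, which is a pattern of zeros and high values in the same group. In all, 11 genes with a mean of at least 100 are listed at 0 in at least 1 library.

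**Figure D4:**
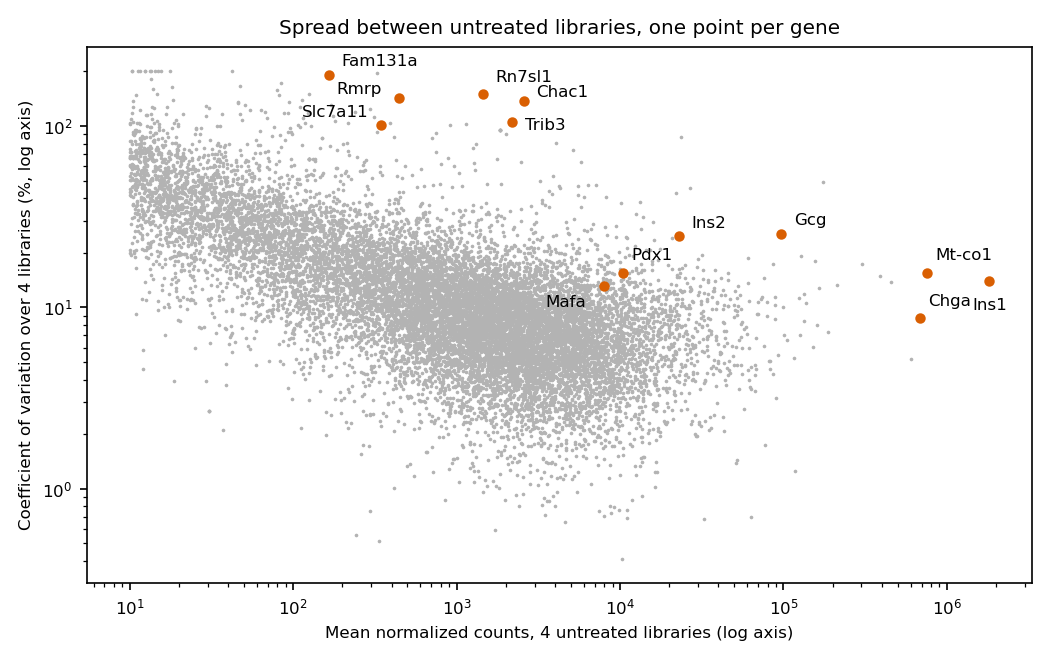
Coefficient of variation over the 4 untreated libraries (vertical, %, log axis) against mean normalized counts (horizontal, log axis), one point per member, with named genes marked. Ins1 lies at 13.96% and Gcg at 25.4%, while Chac1 lies at 137%, Trib3 at 105% and Rn7sl1 at 149.9%.

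Replicate 4 was set apart by genes of the integrated stress response, a program in which the factor ATF4 raises amino acid transport and synthesis. Chac1, which encodes a glutathione-degrading enzyme, had 832, 685, 945 and 7878 normalized counts in replicates 1 to 4. The pseudokinase gene Trib3 had 1191, 732, 1214 and 5620, the cystine transporter gene Slc7a11 179, 145, 189 and 868, and Atf4 itself 18464, 15089, 18313 and 35809. In each of these genes replicate 4 lay above the other libraries, and replicate 2 was lowest. Asparagine synthetase (Asns) had 4616, 4791, 4785 and 8865, the serine synthesis gene Psat1 5427, 3989, 5372 and 10806, and Ddit3, the stress factor CHOP, 3057, 2459, 3110 and 6014. A list of 35 such genes was drawn up after these values were seen and supports nothing beyond a description. In it, replicate 4 was the highest library for 32 of 32 genes with a mean of at least 100, and exceeded each other library by more than 1.5-fold for 27. Replicate 2 was lowest for 25 of the 32, against 33.4% of all genes at that level. Over all 11947 genes at that level, replicate 4 was highest for 34.4% and exceeded each other library by more than 1.5-fold for 0.921%. The share exceeding each other library was 0.0753% in replicate 1, 0.879% in replicate 2 and 0.067% in replicate 3. Replicates 1 and 3 were highest for 21% and 17% of these genes and lowest for 18.9% and 16.7%, and replicate 4 was lowest for 31%. The ratio of replicate 4 to the mean of the others had a median of 1.95 and a range of 1.30 to 9.60 in the list, against a median of 1.00 over all genes. The list made up 0.593% of the normalized counts in replicate 4 and 0.316% to 0.337% in the others.

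The next 2 lists were also drawn up after the values were seen and share Sars, Nars and Atf3 with the first, so they are no separate evidence. Of 20 cytosolic aminoacyl-tRNA synthetase genes, which charge tRNAs with amino acids, 16 were highest in replicate 4, with a median ratio of 1.35. Cars had 6222 normalized counts in replicate 4 and 2886 to 3213 in the others, while Hars had 6052 and 5849 to 6385. Of 12 immediate-early genes with a mean of at least 100, 11 were highest in replicate 4, with Fos at 396 against 153 to 188 and Nr4a1 at 7176 against 2968 to 3830. The metallothionein gene Mt1 had 5575 normalized counts in replicate 4 and 2669 to 3468 in the others. The chaperone gene Hsp90aa1 ran the other way, at 838 in replicate 4 and 5821 to 9679 in the others, while Hsp90ab1 was at 157560 and 138335 to 157101. Without replicate 4 the mean of Chac1 was 821 in place of 2585, that of Trib3 1046 in place of 2189, that of Slc7a11 171 in place of 345 and that of Atf3 408 in place of 711.

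Replicate 2 was set apart by low ribosomal and mitochondrial transcripts and by high structural RNAs. All 74 ribosomal protein rows and all 13 mitochondrially encoded genes with a mean of at least 100 were lowest in replicate 2, against 33.4% of all genes at that level. The ratio of replicate 2 to the mean of the others had a median of 0.790 for the ribosomal and 0.755 for the mitochondrial genes, against 0.989 over all genes. Nuclear genes of oxidative phosphorylation were lowest in replicate 2 in 29 of 31 cases, with a median ratio of 0.871. Rn7sl1, the RNA of the signal recognition particle, had 371, 4694, 244 and 475 normalized counts, and Rmrp, the RNA of the RNase MRP complex, 99.5, 1386, 75.3 and 210. Both are abundant without a poly(A) tail, and both were highest in replicate 2. Of 10 histone rows with a mean of at least 100, 8 were highest in replicate 2, among them Hist1h1a (284, 619, 229 and 221). Histone messages of the replication-dependent class also lack a poly(A) tail.

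Beta cell lists differed among themselves in that library. Of the 5 hormone genes with a mean of at least 100, the median ratio of replicate 2 to the mean of the others was 0.948, and Ins1, at 0.836, was lowest there. Of 23 granule and processing genes 11 were lowest and 5 highest in replicate 2, with a median ratio of 0.987. Of 20 genes of mature beta cell function with a mean of at least 100, 17 were highest in replicate 2, against 27.5% of all genes at that level, with a median ratio of 1.20. Of 21 beta cell transcription factor genes 14 were highest in replicate 2, with a median ratio of 1.13, and of 27 genes of glucose sensing and excitability 17, with a median ratio of 1.10. Besides Gipr, the taste channel gene Trpm5 had 158, 329, 191 and 127 normalized counts and Gad2, which makes the transmitter GABA, 550, 955, 570 and 557. Whether the structural RNAs and these genes are related was not tested.

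**Figure D5:**
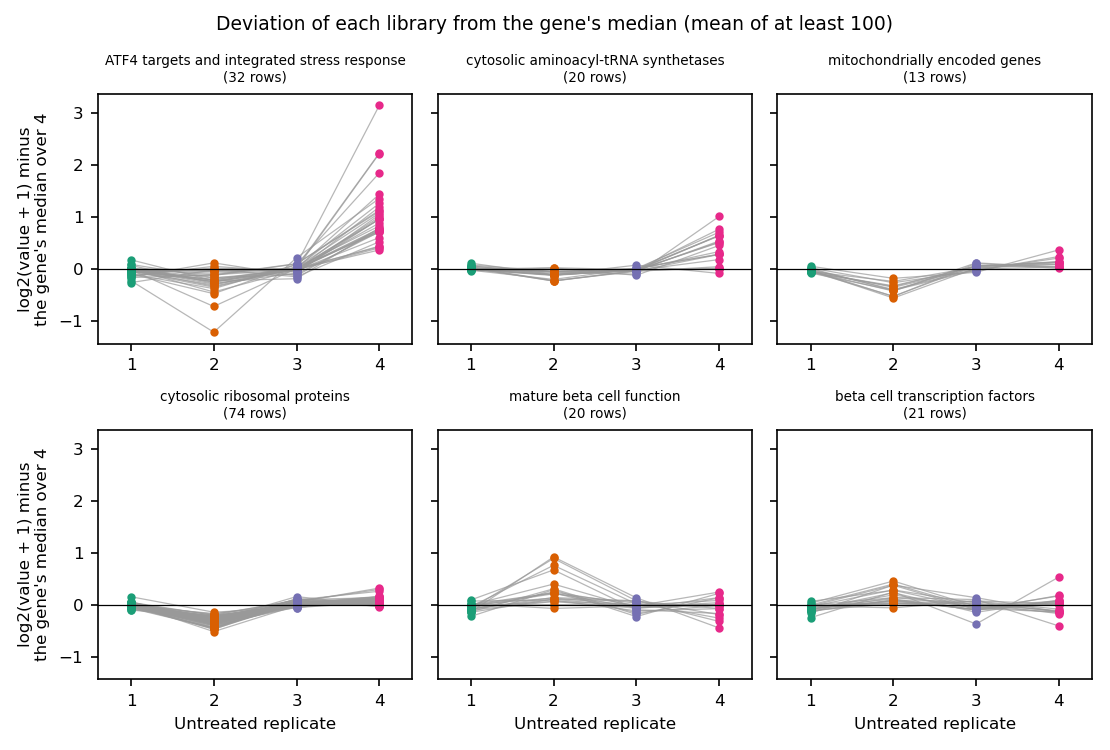
Deviation of each untreated library (horizontal, replicates 1 to 4) from the gene's median over the 4 libraries, in log2(value + 1) (vertical), for genes of the lists drawn with a mean of at least 100, with a grey line per gene. The 32 stress response genes lie above 0 in replicate 4, and the 13 mitochondrially encoded and 74 ribosomal protein rows lie below 0 in replicate 2.

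The threshold of 10 had rows close to it on both sides, few beside the 14419 members. There were 101 rows with a mean from 10 to under 11 and 124 from 9 to under 10. Just inside were Apol9a, Prtg and C12H7orf61, each with a mean of 10.01, and just outside were Klhl31 (9.98), Cacna1f (9.95) and Nox4 (9.95). Of the members, 13744 had at least 10 normalized counts in each library, and 675 were under 10 in at least 1. Of the remaining rows 14170 are listed at 0 in all 4 libraries and 4161 lay between 0 and the threshold. Members without a gene symbol numbered 1913 and made up 5.64% ± 0.144 of the normalized counts (SD, n = 4), of which the 5 leading rows held 0.956% ± 0.143.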

How the data were processed

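The mRNA table holds a signal deposited by the authors: DESeq2 normalized read counts, as the labels name it. The submitters' processing notes name STAR, Salmon, DESeq2 and the build rn6, without versions or roles. Column totals show the depth on that scale only, and the number of reads is not given in the sources used here. Each column was assigned to the sample whose description carries its code. In the titles of replicates 2 and 3 these codes are exchanged. Arsenic and small RNA libraries were not used here.

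Means, SDs, shares and ranks were computed with pandas 2.3.3 and numpy 2.4.6 in Python 3.11.15, and promoters aligned with Biopython 1.88. No test between groups was made. The members and the 30 gene lists were chosen with earlier results of these data known, and 4 further lists after the values were seen. Genes were named by rank, as the first 4 of a list, as markers, by spread or by nearness to the threshold; others after their values were seen. Some genes of the lists enter the counts but are not reported here by name.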

Additional observations from a re-analysis of the deposited data

Results flagged for a closer look

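In 208 values examined over the 4 libraries (shares and named members), 37 had 1 library far from the other 3, as Dixon's test for 4 samples counts it. Of 55 members named only for their large spread or after their values were seen, 20 were among them, a count that the choice of genes sets. Of 148 members named by other rules, 16 were among them, where the 95% level used lets about 1 in 20 through by chance if genes were independent. All 37 were in replicate 2 or replicate 4, and none in replicates 1 or 3. Genes that move together are not independent, so neither count is a test.

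Replicate 4 was high for 15. The stress response genes among them were Chac1 (7878 normalized counts), Trib3 (5620), Slc7a11 (868), Atf3 (1621), Atf4 (35809), Asns (8865) and Ddit4 (2617). The others were Gcg (133456), Gast (342), Slc30a8 (13021), Ccnd2 (2257), Fos (396), Cars (6222), Serpina1 (528) and Slc1a3 (25.4). Replicate 4 was low for Cat (1814) and Mylk (5023).

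Replicate 2 was low for the share of ribosomal protein genes (3.37%) and for Rplp0 (104410), Rpl19 (61310), Rps2 (73216), Atp5f1b (68567), Atp5f1a (48345), Ppia (74636), Hsp90ab1 (138335), Atp2a2 (43866), Fgb (493) and Ctrb1 (208). It was high for Pcsk1n (46.1), Nkx6-1 (10587), Gad2 (955), Rn7sl1 (4694), Rmrp (1386), Hist1h1a (619), Hist1h2ao (268), Calcoco1 (320) and Fam131a (644).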

How the results depend on the processing

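No paired analysis was possible because no groups were compared. With Ins1 left out of the total, the 10 leading rows held 7.69%, the 100 leading rows 20.4% and the hormone genes 0.508% of the normalized counts. The number of members was 15129 at a threshold of 5, 12773 at 50, 13744 with 10 in each library, 14321 by the median, and 14372 to 14443 without 1 library. Listed genes present numbered 526, and 488 at a threshold of 50. Without 1 library the share of Ins1 lay between 3.27% and 3.57%, of hormones between 3.77% and 4.04%, of ribosomal proteins between 3.81% and 4.06%, of the first 10 rows between 10.3% and 10.8% and of the first 100 between 22.8% and 23.5%. Replicates 1 and 3 alone gave 3.80% for Ins1. Leaving out 1 of 4 libraries cannot move a mean by a full SD, so those values say little of stability. Means of 16 named members moved by over 1.5 times, 5 without replicate 4 (Chac1, Trib3, Slc7a11, Atf3, Cd99l2), 7 without replicate 2 (Pcsk1n, whose mean was then 0, Fam131a, Rn7sl1, Rmrp, Calcoco1, Ndst2, Hist1h2ao), 2 without replicate 1 (Echs1, Armcx1) and 2 without replicate 3 (Hprt1, C12H7orf61). Values per kilobase were not computed, as no transcript lengths were at hand. Depth limits low genes, where a single value such as that of Pyy spans 0.825 to 23.2 normalized counts.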
